A study of Mus musculus with 6 samples.

Results

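The genes described here are 10 transcription factors that set up the extraembryonic lineages of the mouse blastocyst. The trophectoderm regulators are Cdx2, Eomes, Gata3, Tfap2a, Tfap2c and Hand1, and the primitive endoderm regulators are Gata4, Gata6, Sox17 and Foxa2. They were chosen by name, as every probe whose only gene symbol on the array platform is one of these. That gave 10 of 8973 named genes and 15 of 11813 probes with a single symbol, with 1 probe for 6 genes and several for 4 (Tfap2c, Hand1, Gata4 and Gata6). All 10 are autosomal.

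The blastocyst has an outer epithelium, the trophectoderm, which founds the placenta, and an inner cell mass. The inner cell mass then separates into the pluripotent epiblast and the primitive endoderm, an epithelium that founds the yolk sac. Outer cells, in which Hippo signalling is low, let the cofactor Yap1 work with Tead4 to switch on Cdx2 and Gata3, while FGF signalling in inner cells favours Gata6 over Nanog and leads on to Sox17 and Gata4. As background, loss of Cdx2 lets outer cells take up inner cell mass genes, and loss of Gata6 leaves the inner cell mass without primitive endoderm.

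The study set female against male embryos. Each of 6 2-colour arrays compared RNA of whole female blastocysts with RNA of whole male blastocysts at E3.5, extracted from pools of over 200 embryos of 1 sex with yeast tRNA as carrier. Mothers were B6C3F1 mice of 8 weeks given 5 IU each of pregnant mare serum gonadotropin and human chorionic gonadotropin, fathers were XGFPY mice, and embryos were collected with 4 cells and cultured for 38 h in kSOM without treatment. Both sexes thus share the cross, the hormones and the culture. There were 3 independent preparations, each hybridised in both dye orientations, so that 3 arrays carry female RNA in Cy5 and 3 carry it in Cy3.

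Values are log2 ratios, female RNA over male RNA, given with their SD (n = 3 preparations), where a preparation is the mean of its 2 arrays. A positive value means more signal from the RNA labelled female, and 1 is a doubling. Ratios carry no level, so whether a gene was above background, and which gene had the higher level, cannot be read from them. For the same reason the labelled stage could not be checked by the presence of its markers. In RNA of whole embryos, fewer cells of a lineage and less RNA per cell cannot be told apart.

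The labels of preparation 3 go against its sex-linked RNAs, and this touches each mean below. Xist, which coats the X chromosome that is silenced in female cells, stood at 2.25 and 2.09 in preparations 1 and 2 and at -1.55 in the preparation labelled 3, and the Y-linked Eif2s3y at -1.75, -1.76 and 1.93. Means are therefore given as labelled, without preparation 3, and with the sign of preparation 3 turned. The last setting exchanges the sexes of that preparation because of its own values, so it is an alternative reading and not a relabelled group.

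None of the 10 regulators passed the test for a difference between the sexes. limma, fitted over all rows with Benjamini-Hochberg adjustment, called 0 of 10 members and 0 of 18606 rows as labelled (0%), with 0 members and 484 rows (2.6%) reaching 0.05 unadjusted. After turning preparation 3 it again called 0 members and 0 rows (0%), with 0 members and 1356 rows (7.29%) reaching 0.05 unadjusted. Without preparation 3 the counts were 0 members and 0 rows (0%), and 0 members and 838 rows (4.5%). When the 6 arrays were fitted with a replicate block and a dye term, the counts were 0 members and 0 rows as labelled (0%; Tfap2a and 2.75% of rows reached 0.05 unadjusted) and 0 members and 39 rows with preparation 3 turned (0.21%; Gata3 and 9.04% of rows unadjusted). A single orientation, in which the dye does not cancel, gave 0 members and 0 rows with female RNA in Cy5 and 0 members and 628 rows (3.38%) with it in Cy3. The smallest unadjusted p of a member was 0.0990, for Tfap2a, as labelled (limma adjusted p = 1) and 0.0596, for Gata3 (limma adjusted p = 0.685), with preparation 3 turned. On preparation means limma also did not call Xist or Eif2s3y (adjusted p = 0.465 and 0.187 with preparation 3 turned). Missing the threshold there thus cannot show that a regulator did not differ. With the replicate block and dye term and preparation 3 turned, both were called (limma adjusted p = 0.0340 and 0.0122).

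The median ratio of the regulators lay near 0. It was 0.039 as labelled, 0.095 without preparation 3 and 0.083 with it turned, where all named genes had medians of 0.0040, 0.0063 and 0.0048. The 6 trophectoderm regulators had a median of 0.039 as labelled and the 4 primitive endoderm regulators one of 0.020. As labelled 6 of 10 had a positive mean, against 52.7% of named genes, and with preparation 3 turned 8 of 10, against 52.5%. Preparation by preparation, 5, 7 and 3 of the 10 were positive, against 4706, 4466 and 4407 of 8973 named genes. Only 2 of 10 had 1 sign in all 3 preparations as labelled (Cdx2 and Gata6, against 18.9% of named genes) and 2 of 10 with preparation 3 turned (Gata3 and Sox17, against 36.7%).

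**Figure D1:**
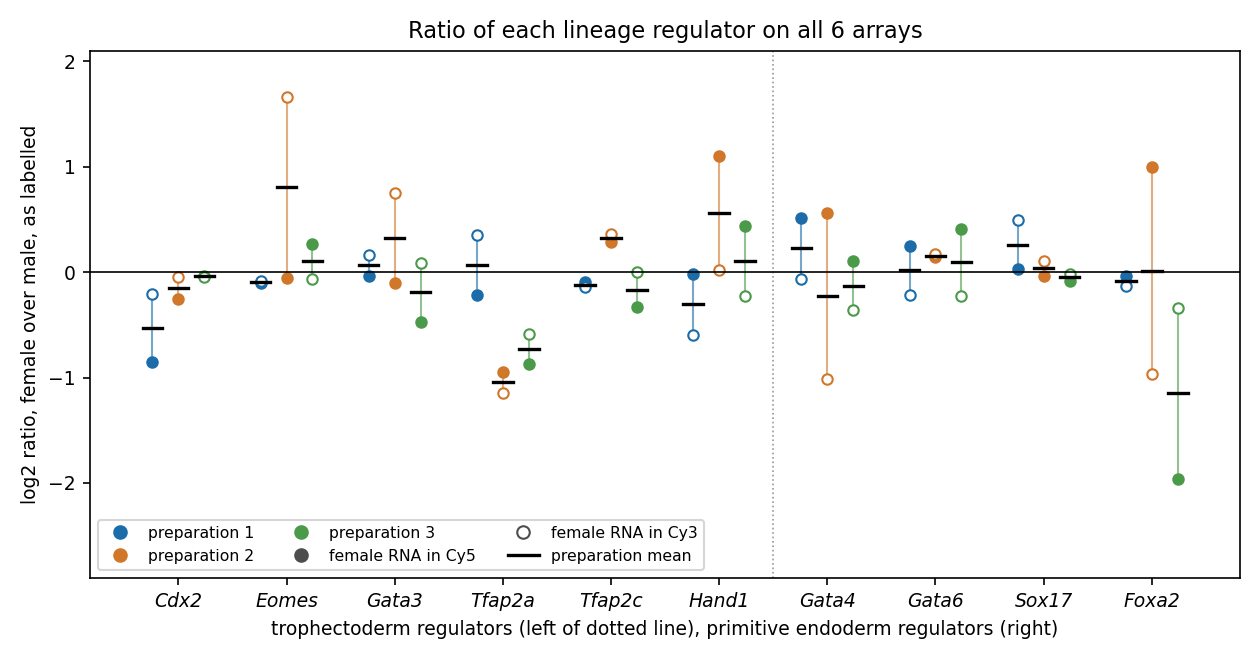
Log2 ratio of female over male (vertical axis, as labelled) of the 10 regulators on each array. Filled points are arrays with female RNA in Cy5, open points those with female RNA in Cy3, colours mark the preparation, and black bars are preparation means; Cdx2 lies below 0 on all 6 arrays, and the pairs of Eomes, Gata4 and Foxa2 in preparation 2 are the most widely parted of these genes in that preparation.

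Cdx2, the caudal-type homeobox factor that keeps the trophectoderm from expressing inner cell mass genes, was the only member with 1 sign on all 6 arrays as labelled (1 of 10, against 1.17% of named genes; 0 of 10 with preparation 3 turned, against 6.44%). With female RNA in Cy5 and in Cy3 it read -0.85 and -0.21 in preparation 1, -0.26 and -0.049 in preparation 2, and -0.033 and -0.044 in the preparation labelled 3. The sizes were uneven: preparation 1 was low and the preparation labelled 3 lay close to 0. The mean was -0.24 ± 0.26 (limma 95% interval -0.60 to 0.12, adjusted p = 1), a ratio of 1.18 for the RNA labelled male over that labelled female. It was -0.34 without preparation 3 and -0.22 with it turned.

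Eomes encodes a T-box factor needed for trophoblast to proliferate. It was at -0.11 and -0.087 in preparation 1, -0.051 and 1.66 in preparation 2, and 0.26 and -0.061 in the preparation labelled 3, in the same order of dyes. A single array, that of preparation 2 with female RNA in Cy3, lay apart and alone made that preparation high. The mean of 0.27 ± 0.47 was smaller than its SD (limma 95% interval -0.35 to 0.89, adjusted p = 1). Without preparation 2 it was 0.0020.

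Gata3, a zinc finger factor that acts beside Cdx2 in outer cells, changed sign with the dye orientation. Its ratios were -0.033 and 0.16 in preparation 1, -0.11 and 0.75 in preparation 2, and -0.47 and 0.082 in the preparation labelled 3. All arrays with female RNA in Cy5 were negative and all with female RNA in Cy3 positive. The same dye was thus higher on all 6 arrays, as in 22.9% of named genes. The preparation means of 0.064, 0.32 and -0.19 gave 0.064 ± 0.26 as labelled (limma 95% interval -0.29 to 0.42) and 0.19 ± 0.13 with preparation 3 turned (limma 95% interval -0.014 to 0.40, adjusted p = 0.685).

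The AP-2 factors Tfap2a and Tfap2c are related proteins that bind the same kind of GC-rich site, and Tfap2c is required in trophoblast. Tfap2a had the largest mean of the members as labelled, at -0.57 ± 0.57, or 1.48-fold higher in the RNA labelled male (limma 95% interval -1.32 to 0.18, adjusted p = 1). It was the only member whose mean was over 0.5 in size, as were 0.524% of named genes; with preparation 3 turned 0 of 10 were, against 0.858%. On its arrays it read -0.22 and 0.35 in preparation 1, -0.95 and -1.15 in preparation 2, and -0.87 and -0.59 in the preparation labelled 3. The dye orientations kept close together in preparations 2 and 3 while preparation 1 lay near 0. Since the preparation labelled 3 carries the same sign as preparation 2, turning it left a mean of -0.082 ± 0.90, and without it the mean was -0.49 with a limma 95% interval of -1.80 to 0.82.

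Tfap2c, with its 2 probes averaged, had a mean near 0 because preparations of opposite sign (-0.12, 0.33 and -0.16) cancelled. The gene stood at -0.098 and -0.14 in preparation 1, 0.28 and 0.37 in preparation 2, and -0.33 and -0.00066 in the preparation labelled 3, with a mean of 0.014 ± 0.27 (limma 95% interval -0.36 to 0.39). Preparation 2 was positive on both arrays and the others were negative on theirs, the last array by next to nothing. The probes differed in preparation 2, where the first read 0.57 and the second 0.081.

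Hand1, a basic helix-loop-helix factor of trophoblast giant cells, had wide gaps between dye orientations. Its values were -0.017 and -0.59 in preparation 1, 1.10 and 0.020 in preparation 2, and 0.43 and -0.22 in the preparation labelled 3. In each preparation the array with female RNA in Cy5 was the higher one. The mean was 0.12 ± 0.43 (limma 95% interval -0.45 to 0.69, adjusted p = 1). The high value of preparation 2 came from the first of 2 probes, which read 1.94 with female RNA in Cy5 where the second read 0.27.

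Gata6 marks the first cells set aside for primitive endoderm and had the steadiest ratio of all members. The mean of its 3 probes stood at 0.25 and -0.21 in preparation 1, 0.14 and 0.17 in preparation 2, and 0.41 and -0.23 in the preparation labelled 3. The preparation means of 0.019, 0.15 and 0.093 were all slightly positive, at 0.089 ± 0.068 (limma 95% interval -0.074 to 0.25, adjusted p = 1). Turning preparation 3 gave 0.026 ± 0.12. The small SD belongs to the average: single probes had SDs of 0.21, 0.32 and 0.15, and means of 0.078, 0.20 and -0.0093.

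Gata4 is a related zinc finger factor expressed once primitive endoderm is established. The mean of its 2 probes changed sign with the dye on every pair of arrays. It read 0.52 and -0.066 in preparation 1, 0.56 and -1.01 in preparation 2, and 0.10 and -0.36 in the preparation labelled 3. Arrays with female RNA in Cy5 were all positive and those with female RNA in Cy3 all negative, the reverse of Gata3. Neither probe showed this alone. Probe 1 was negative on both arrays of the preparation labelled 3, at -0.088 and -0.41. Probe 2 was positive on both arrays of preparation 1, at 0.074 and 0.066. Once both orientations were averaged the mean was -0.042 ± 0.24 (limma 95% interval -0.37 to 0.29) and 0.043 with preparation 3 turned.

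Sox17, an HMG-box factor that follows Gata6 in primitive endoderm, lay close to 0 on 5 of its 6 arrays. The values were 0.025 and 0.49 in preparation 1, -0.036 and 0.11 in preparation 2, and -0.081 and -0.017 in the preparation labelled 3. Its mean was 0.082 ± 0.16 as labelled (limma 95% interval -0.16 to 0.33, adjusted p = 1) and 0.11 ± 0.12 with preparation 3 turned.

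Foxa2, a forkhead factor of visceral endoderm and later of definitive endoderm, had the largest SD of the members. It was at -0.033 and -0.13 in preparation 1, 0.99 and -0.97 in preparation 2, and -1.96 and -0.34 in the preparation labelled 3. Preparation 2 cancelled to 0.012 between its dyes, and 1 array of the preparation labelled 3 was the lowest value of any member. The mean was -0.41 ± 0.65 as labelled (limma 95% interval -1.25 to 0.43, adjusted p = 1), -0.035 without preparation 3 and 0.36 ± 0.69 with it turned, so its direction rests on that preparation.

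**Figure D2:**
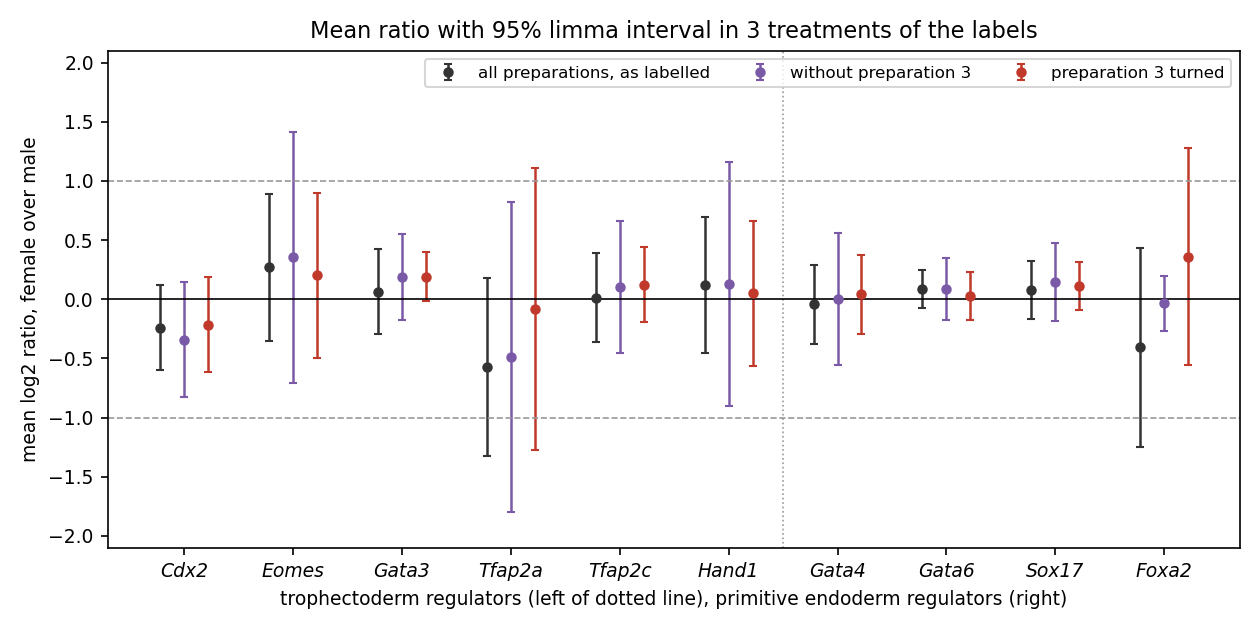
Mean log2 ratio of female over male (points) with the 95% limma interval (bars) for each regulator, as labelled (n = 3 preparations), without preparation 3 (n = 2) and with preparation 3 turned (n = 3). Dashed lines mark a doubling in either direction; every interval includes 0, and those of Tfap2a and Foxa2 pass a dashed line both as labelled and with preparation 3 turned.

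The intervals bound the mean ratio under each reading of the labels. As labelled they join preparations whose sex-linked RNAs go opposite ways. A difference between the sexes could then partly cancel, so these intervals alone cannot exclude a doubling between the sexes. As labelled, 8 of 10 regulators had a 95% interval within -1 and 1, so that a doubling in either direction lay outside it, as did 97.4% of named genes. The exceptions were Tfap2a and Foxa2. With preparation 3 turned the count was again 8 of 10, with the same exceptions, against 97.7% of named genes. The narrowest interval was that of Gata6, from -0.074 to 0.25. A p that misses the threshold does not show equal levels, and for Eomes and Hand1 upper bounds of 0.89 and 0.69 leave room for a sizeable difference. Without preparation 3 the bounds farthest from 0 were -1.80 for Tfap2a, 1.42 for Eomes and 1.16 for Hand1, each past 1 in size. An exact sign-flip test of a single gene over 3 preparations cannot go below p = 0.25.

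The regulators varied more between preparations than most genes on the array. Their SD over preparations had a median of 0.26, against 0.12 for all named genes, and 9 of 10 exceeded that gene median. The exception was Gata6, at the 26.8th percentile of named genes. Above the 90th percentile of named genes, an SD of 0.34, lay Hand1, Eomes, Tfap2a and Foxa2, the last at the 98.2nd percentile. The SD exceeded the size of the mean for 9 of 10 members as labelled, all but Gata6, and for Tfap2a barely (0.574 against 0.570). The share of named genes with this was not counted. Their median SD of 0.12 also exceeded the median size of their means, 0.048. Signal intensities were not analysed here, so the part of dim spots in this spread was not tested. No value of the members' probes was an exact 0 or at the limit of the deposited scale.

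**Figure D3:**
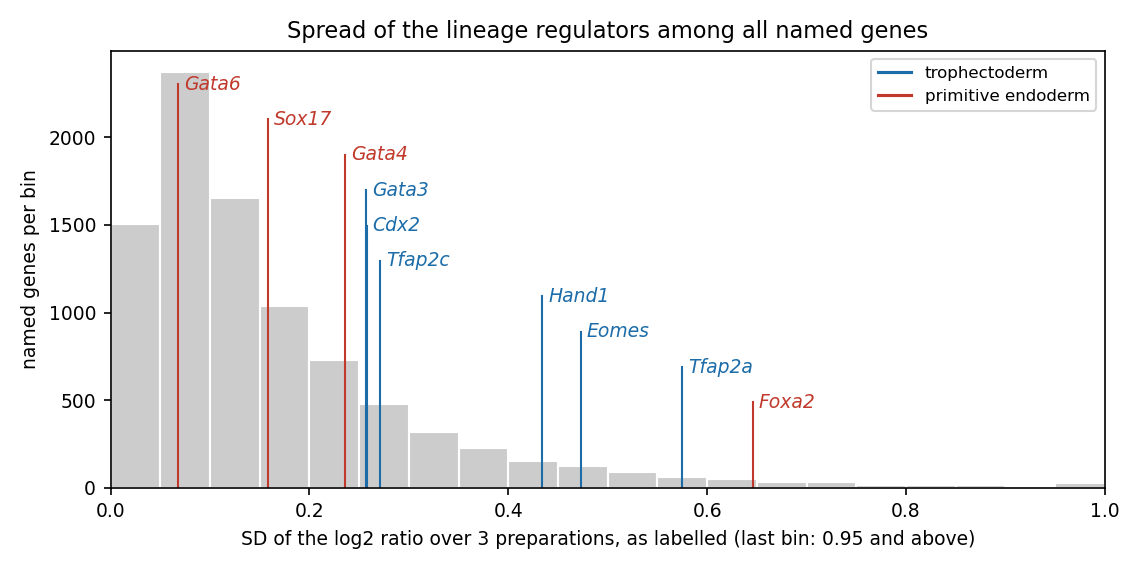
Histogram of the SD of the log2 ratio over 3 preparations, as labelled, for 8973 named genes (grey bars, bins of 0.05), with vertical lines at the SDs of the 10 regulators; line height has no meaning. Most regulators lie to the right of the bulk, Foxa2 farthest at 0.65, and Gata6 lies within it at 0.068.

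The dye effect of a probe, its ratio of Cy5 over Cy3 whatever the sex, was larger in size than the sex ratio for 6 of 10 members as labelled, against 73.9% of named genes. It was largest for Gata4 (0.44 ± 0.31) and Hand1 (0.39 ± 0.14). limma called 0 of 10 members and 0 rows for it (0%), with 2 members, Gata3 and Hand1, and 26.6% of rows past 0.05 unadjusted. The smallest adjusted p of a member was 0.106, for Hand1. With the replicate block and a sex term limma called 12.1% of rows and 0 of 10 members. In 2 of 10 members, Gata3 and Gata4, the same dye was higher on all 6 arrays, as in 22.9% of named genes. For Gata4 this held for the mean of its 2 probes, while each probe had Cy5 higher on 5 of 6 arrays. Averaging both orientations removes the part of this effect that a preparation shares between its arrays.

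Probes of 1 gene could differ in dye effect. Probe 2 of Gata6 had a dye effect of 0.73, 0.91 and 0.79 in the 3 preparations (limma adjusted p = 0.0536 among single probes), and probe 3 had -0.31, -1.04 and -0.13. These probes thus pointed in opposite dye directions in every preparation. Their mean sex ratios were 0.20 ± 0.32 and -0.0093 ± 0.15. For Gata4 the 2 probes had dye effects on the same side of 0, at 0.49 and 0.38, and sex ratios of -0.094 ± 0.42 and 0.010 ± 0.053. Foxa2, with 1 probe, had dye effects of 0.050, 0.98 and -0.81, which do not share a sign.

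**Figure D4:**
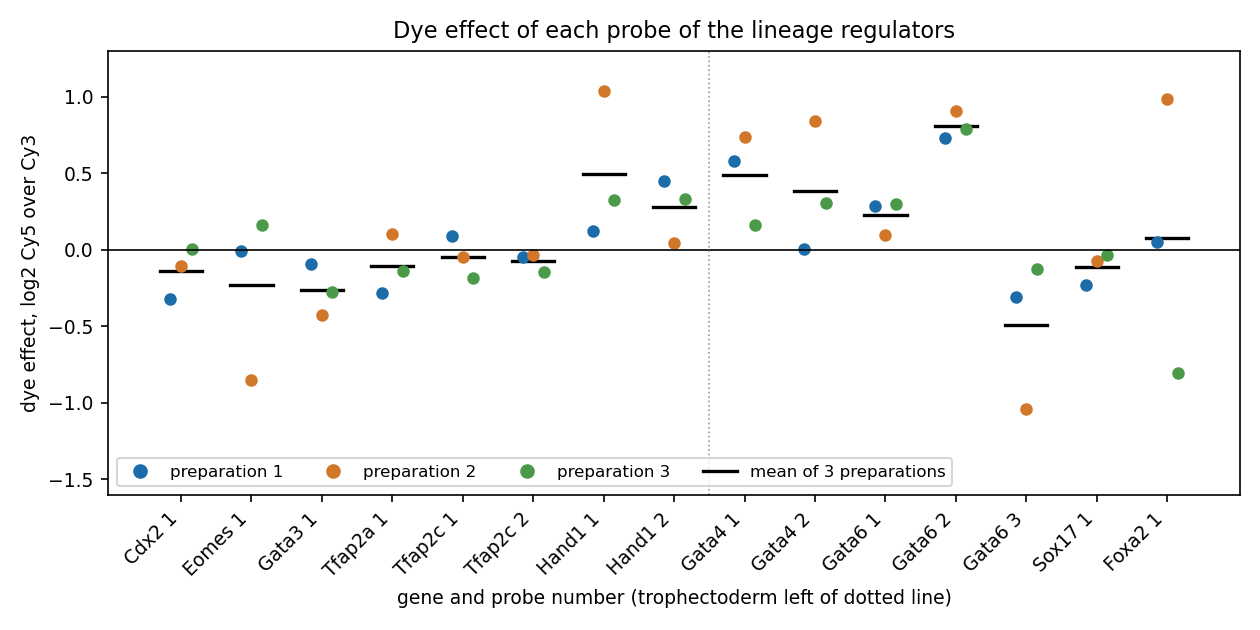
Dye effect (log2 of Cy5 over Cy3, mean of the 2 arrays of a preparation) of each of the 15 probes; points are preparations and bars their means. Probes 2 and 3 of Gata6 lie on opposite sides of 0, and the single probe of Foxa2 ranges from -0.81 to 0.98.

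The genes around these regulators showed no called difference either, in fits of preparation means that did not call Xist or Eif2s3y. Over all rows, 2.6% as labelled and 7.29% with preparation 3 turned reached 0.05 unadjusted in those fits. Of the position and Hippo signals upstream of trophectoderm, 21 of 26 listed genes were measured, and limma called 0 in either direction as labelled and 0 with preparation 3 turned, with 0 and 1 past 0.05 unadjusted. Their median was 0.057 as labelled and 0.0039 with preparation 3 turned. The polarity gene Pard3 stood at -0.15 ± 0.066, the Notch effector Rbpj at -0.17 ± 0.23 and the Hippo kinase Lats1 at -0.15 ± 0.21 as labelled. With preparation 3 turned, the widest were Amotl2 (-0.18 ± 0.11) and Amot (0.15 ± 0.063), junctional proteins that hold Yap1 outside the nucleus, the second X-linked, and the kinase cofactor Mob1b (-0.16 ± 0.23).

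Other trophectoderm and trophoblast genes, 19 of 24 measured, gave 0 calls in either setting, with 0 and 3 past 0.05 unadjusted, and medians of -0.0030 and 0.033. Ascl2, a trophoblast helix-loop-helix factor, read -0.27 ± 0.63 as labelled through preparation 2 alone, at -0.99. The keratin Krt7 stood at -0.29, -0.38 and 0.35 in preparations 1, 2 and 3. That is -0.11 ± 0.40 as labelled and -0.34 ± 0.045 with preparation 3 turned (limma adjusted p = 0.569). The other keratins of this list did not share 1 direction. With preparation 3 turned Krt18 stood at 0.28 ± 0.14 (limma unadjusted p = 0.0236, adjusted p = 0.646) and Krt8 at -0.11 ± 0.018. The helix-loop-helix inhibitor Id2 was at -0.097 ± 0.073 as labelled and the homeobox gene Msx2 at 0.30 ± 0.25 with preparation 3 turned.

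FGF and MAPK signals upstream of primitive endoderm, 18 of 29 measured, gave 0 calls as labelled and 0 with preparation 3 turned, with 0 and 3 past 0.05 unadjusted, and medians of 0.0014 and -0.012. Spry1, an inhibitor of the pathway, had the largest mean as labelled, at 0.17 ± 0.16. The MAPK phosphatase Dusp4 stood at -0.27 ± 0.032 with preparation 3 turned, the ligand Fgf5 at -0.23 ± 0.11 and the kinase Map2k2 at 0.21 ± 0.053. As labelled Fgf5 was at -0.13 ± 0.27 and Map2k2 at 0.11 ± 0.22.

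Other primitive endoderm genes, 17 of 26 measured, gave 0 calls in both settings, with 1 and 2 past 0.05 unadjusted, and medians of -0.018 and 0.035. Ttr, the thyroid hormone carrier made by visceral endoderm, was lower in the RNA labelled female in all 3 preparations, at -0.36, -0.60 and -0.52. Its mean was -0.50 ± 0.12 as labelled (unadjusted p = 0.00367, limma adjusted p = 1) and -0.15 ± 0.59 with preparation 3 turned. Among basement membrane chains, Lamc1 stood at -0.20 ± 0.18 and Lama1 at 0.19 ± 0.20 as labelled. With preparation 3 turned, the lipoprotein gene Apoe stood at 0.22 ± 0.13 and the X-linked Cited1, a transcriptional cofactor, at 0.18 ± 0.028.

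Relatives of the regulators outside the list, 7 of 19 measured, gave 0 calls in both settings, with 0 past 0.05 unadjusted, and medians of -0.012 and 0.0028. Hand2, the close relative of Hand1, was at -0.36 ± 0.37 as labelled and -0.054 with preparation 3 turned. Tbx3 stood at 0.072 ± 0.087 and Tfap2e at 0.052 ± 0.11 as labelled, and Foxa1 at 0.081 ± 0.18 with preparation 3 turned.

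Tfap2a had the largest typical ratio of the members, a median size of 0.73 over preparations, and the genes most like it over the 6 arrays were Dtna (Pearson's r = 0.982), Hand2 (0.974) and Pdk1 (0.962). Among 8970 genes compared, 27 had r over 0.9, and the 6 arrays are 3 pairs that share their RNA. Hand2 stood at 0.052, -0.68 and -0.46 in preparations 1 to 3 and Dtna, which encodes a dystrobrevin, at 0.082, -0.77 and -0.52. Both thus had the order of Tfap2a, at 0.068, -1.05 and -0.73, while Pdk1, a pyruvate dehydrogenase kinase, had it at a smaller size (0.12, -0.18 and -0.040).

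Factors of the inner cell mass, the tissue that trophectoderm is set apart from and primitive endoderm arises in, had preparation medians of 0.11, 0.15 and -0.099 (7 of 9 measured). All 10 regulators together had -0.032, 0.095 and -0.088. Nanog stood at 0.37, 0.41 and -0.38, with the sign pattern of Xist, as did Klf4 (0.28, 0.27 and -0.21) and Sox2 (0.18, 0.29 and -0.37). Tfcp2l1 (-0.012, 0.15 and -0.046) and Esrrb (-0.037, 0.019 and -0.059) did not have it. With preparation 3 turned, 36.7% of named genes had 1 sign in all 3 preparations. As labelled the largest means were those of Nanog (0.13 ± 0.45), Klf4 (0.11 ± 0.28) and Sall4 (0.047 ± 0.058). limma called 0 of the 7 factors in both settings of the preparation means, with 0 and 3 past 0.05 unadjusted, against 2.6% and 7.29% of all rows. Nanog passed limma's test in the 6-array fit with replicate block and dye term and preparation 3 turned (adjusted p = 0.0393), and none of the 10 regulators did. That fit estimated a correlation of 0.145 between arrays of a preparation. It thus counts them as nearly independent although they share their RNA. On the preparation means with preparation 3 turned, the limma adjusted p of Nanog was 0.536. Gata6, which Nanog represses in the inner cell mass, read 0.019, 0.15 and 0.093 in the same preparations.

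Markers of maternal cells that might come with embryos from the oviduct were few on the array, and limma gave 0 calls in both settings, with 0 past 0.05 unadjusted as labelled and 1, Ptprc, with preparation 3 turned. Of cumulus and granulosa cell genes 4 of 8 were measured, with a median of -0.021 as labelled and preparation medians between -0.042 and 0.032; Has2 stood at -0.11 ± 0.13, Fshr at -0.028, Inha at 0.021 and Star, named for its value with preparation 3 turned, at -0.084. Of oviduct epithelium 3 of 5 were measured, Muc1 (-0.14 ± 0.036), Krt14 (-0.046 ± 0.39) and Ovgp1 (0.057 ± 0.14). Of blood cells 3 of 4 were measured, Ptprc (-0.12 ± 0.40 as labelled and -0.34 ± 0.091 with preparation 3 turned, limma adjusted p = 0.60), Lyz2 (-0.080 ± 0.17) and Fcer1g (0.029 ± 0.039). Which of these were at background is unknown, and their part in the regulators' ratios was not tested.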

How the data were processed

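Female over male ratios came from 6 2-colour arrays of 3 preparations. Scans were read with Feature Extraction 7.5 and combined with Luminator, per the labels' design text; the sources used here do not say which of them made the value table. The deposited log10 ratio of each of 21446 features was taken as Cy5 over Cy3 and multiplied by 3.32 to give log2 values; base and direction are not stated, and array medians lay between 0 and 0.00223. The base was read from limits at exactly -2 and 2, and the direction from Xist and Eif2s3y in preparations 1 and 2, so fold changes depend on both readings.

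The sign was turned on arrays that carry female RNA in Cy3, the 2 arrays of a preparation averaged, and the mean tested against 0 with limma 3.58.1 (R 4.3.3, lmFit and eBayes, Benjamini-Hochberg at 0.05) over 18606 rows, namely 8973 genes (means of their single-symbol probes) and 9633 unnamed features. Symbols were updated by gene number (11782 of 11813 probes matched) from the GRCm38.p6 gene table. Replicate numbers pair the sexes, since both extracts of a number share arrays. Alternatives were preparation 3 turned, each preparation left out, 6 arrays with replicate block and dye term, single orientations, centring, single probes and named genes only. The number of arrays limits the precision.

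Besides the members, Xist and Eif2s3y, the text names from each of 9 gene lists the 3 genes with the largest mean as labelled and the 3 with preparation 3 turned, and the 3 genes most correlated with the member of largest typical ratio. Krt8 and Krt18 are named in addition, as the other keratins beside Krt7. Members, lists and tests were chosen with earlier results of these data known. Fits were tested on simulated data.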

Additional observations from a re-analysis of the deposited data

Results flagged for a closer look

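Gata3 and Gata4 had opposite signs of the female over male ratio in the 2 dye orientations on every array. For Gata4 this held for the mean of its 2 probes and for neither probe alone. For Gata3 the mean was -0.20 with female RNA in Cy5 and 0.33 with female RNA in Cy3, a dye effect of -0.27 (limma adjusted p = 0.183, not past the threshold). For Gata4 it was 0.39 and -0.48, a dye effect of 0.44 (limma adjusted p = 0.188). Among named genes 22.9% share this pattern.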

How the results depend on the processing

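No regulator passed limma's test under any alternative run. The count of rows called was 0 as labelled and under the alternatives except 39 with replicate block and dye term and preparation 3 turned, none of them a member (smallest limma adjusted p of a member 0.536, Gata3), and 628 with female RNA in Cy3 alone, where the dye does not cancel; it was 0 whichever replicate was left out. With the replicate block and dye term as labelled it was 0 rows (511 past 0.05 unadjusted, Tfap2a among them at 0.0421), and no other call changed. With a replicate left out, the median of the regulators ranged from -0.083 (without replicate 2) to 0.095 (without replicate 3), and it was -0.039 in the Cy5 and -0.096 in the Cy3 orientation. Single genes changed sign as follows. With preparation 3 turned Gata4 gave 0.043 and Foxa2 0.36, with and without the block. With female RNA in Cy5 alone Gata3 gave -0.20, Tfap2c -0.048, Gata4 0.39 and Sox17 -0.030; with it in Cy3 alone Hand1 gave -0.27 and Gata6 -0.091. Leaving out a replicate moved Gata3 from -0.065 to 0.19, Tfap2c from -0.14 to 0.10, Hand1 from -0.10 to 0.33, Gata4 from -0.18 to 0.049 and Sox17 from -0.0062 to 0.15. The cause of these changes was not tested. Centring changed no sign. Signal over background is unknown.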
